A study of Homo sapiens with 18 samples.

Results

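The nuclear genes for the subunits of the mitochondrial respiratory chain and of ATP synthase were followed on 18 arrays of K562 cells carrying CALR vectors. A gene belonged to the set when its symbol began with NDUFA, NDUFB, NDUFC, NDUFS or NDUFV (complex I), UQCR (complex III), COX4 to COX8 (complex IV) or ATP5F, ATP5M or ATP5P (ATP synthase), or was CYC1 or one of SDHA to SDHD. Assembly factors named NDUFAF and pseudogenes were left out. The rule found 80 of the 19775 genes that at least 1 probe set names alone, and each gene was read from its brightest such probe set, by the mean of the 18 arrays. Of these, 77 are coding genes, placed by symbol: 33 of complex I, 3 of complex II, 7 of complex III, 17 of complex IV (6 of them tissue isoforms) and 17 of ATP synthase. The other 3 are noncoding neighbours that share a prefix (NDUFB2-AS1, NDUFV1-DT and NDUFV2-AS1). SDHB, UQCRFS1, NDUFA4 and the isoform NDUFA4L2 were not analysed here, and NDUFS5, NDUFS8, NDUFC2 and UQCRH were read only by probe sets shared with other genes.

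The respiratory chain sits in the inner mitochondrial membrane. Complex I passes electrons from NADH, and complex II those from succinate, to coenzyme Q. Complex III hands them to cytochrome c and complex IV to oxygen, and the proton gradient that complexes I, III and IV build drives ATP synthase. Complexes I and III are the main sites at which the chain leaks superoxide, so the chain is both a source and a target of oxidative stress. The mitochondrial genome encodes a few core subunits, and the nuclear genes described here encode the others.

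K562 is a human chronic myelogenous leukemia line that carries BCR-ABL. All cells were transduced with a retroviral LXIDN vector and selected for its NGFR marker. The vectors held wild-type calreticulin (CALRwt), CALRdel52 or CALRins5, the type I and type II mutated variants of this endoplasmic reticulum chaperone, so every group overexpressed a CALR form on top of the cells' own and was a selected pool. For each vector, 3 arrays were from untreated cells and 3 from cells exposed to Melittin (MEL), a bee venom peptide used by the study to induce oxidative stress, at 5 μg/mL for 24 h. The labels describe RNA of untreated cells both as taken right after sorting and as taken after culture without MEL, so MEL exposure and time in culture cannot be told apart. The methods name the U219 array, whereas the probe set names here belong to HG-U133 Plus. Untreated replicates came from 3 independent experiments by the methods. For the MEL arrays this is not stated, so their spread may be technical only.

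The erythroid genes GATA1, TAL1, KLF1, LMO2, HBE1, HBZ and TFRC had mean log2 signals of 8.98 to 12.3. With MEL 3 of these 7 fell (GATA1 by 0.20, LMO2 by 0.42 and HBZ by 0.48) and 2 rose (HBE1 by 0.22 and TFRC by 0.41), and the part of this in the results below was not tested. Markers of T cells, B cells, monocytes and fibroblasts lay between 3.09 and 8.87 (the highest was CD3D), and limma called 0 of them with MEL. RNA quality moved with treatment. The difference between the 3' and 5' GAPDH probe sets, which grows as RNA is degraded, was 0.31 to 0.41 on the 9 untreated arrays and 0.42 to 1.33 on the 9 MEL arrays. The interquartile range of an array was 3.63 to 3.73 untreated and 3.41 to 3.65 with MEL. The arrays of CALRins5 MEL replicate 1 and CALRdel52 MEL replicate 3 stood apart from the others by the lowest median correlations between arrays (0.9903 and 0.9887). CALRwt MEL replicate 3 came close (0.9908). The GAPDH difference was the highest, 1.33, in CALRins5 MEL replicate 1, but at the MEL median, 0.65, in CALRdel52 MEL replicate 3.

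Many promoters of respiratory chain genes are known to carry motifs of NRF1, ETS-family factors and YY1. Promoter windows of 300 bases around the annotated start are printed for 4 members with contrasting changes. NDUFS1 and NDUFS6 of complex I and SDHD of complex II fell upon MEL exposure, and NDUFB4 was the member that rose. The letters are RefSeq's on GRCh38.p14, 5' to 3' on the strand of the gene, and capitals mark an NRF1 motif (GCGCATGCG) or an ETS motif (CCGGAAGT) on either strand. The windows lie at chr2:206159395-206159694 (NDUFS1, minus strand), chr5:1801157-1801456 (NDUFS6, plus), chr11:112086623-112086922 (SDHD, plus) and chr3:120596086-120596385 (NDUFB4, plus).
NDUFS1: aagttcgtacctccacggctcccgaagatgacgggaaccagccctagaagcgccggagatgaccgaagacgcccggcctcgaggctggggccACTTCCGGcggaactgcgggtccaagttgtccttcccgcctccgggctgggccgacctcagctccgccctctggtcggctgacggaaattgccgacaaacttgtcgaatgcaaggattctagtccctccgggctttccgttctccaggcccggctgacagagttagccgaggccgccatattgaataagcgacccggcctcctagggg
NDUFS6: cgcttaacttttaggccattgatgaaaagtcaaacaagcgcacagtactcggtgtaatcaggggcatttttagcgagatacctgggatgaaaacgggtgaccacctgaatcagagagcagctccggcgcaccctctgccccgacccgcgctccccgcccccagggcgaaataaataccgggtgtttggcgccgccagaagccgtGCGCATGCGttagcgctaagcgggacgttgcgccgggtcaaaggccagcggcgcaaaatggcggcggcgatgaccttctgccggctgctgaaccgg
SDHD: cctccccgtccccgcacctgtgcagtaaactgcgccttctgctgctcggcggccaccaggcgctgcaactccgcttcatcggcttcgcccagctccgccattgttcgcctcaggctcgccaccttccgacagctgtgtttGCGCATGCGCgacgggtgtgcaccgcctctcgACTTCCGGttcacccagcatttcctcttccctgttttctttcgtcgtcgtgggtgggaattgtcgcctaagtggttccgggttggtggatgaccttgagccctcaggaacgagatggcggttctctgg
NDUFB4: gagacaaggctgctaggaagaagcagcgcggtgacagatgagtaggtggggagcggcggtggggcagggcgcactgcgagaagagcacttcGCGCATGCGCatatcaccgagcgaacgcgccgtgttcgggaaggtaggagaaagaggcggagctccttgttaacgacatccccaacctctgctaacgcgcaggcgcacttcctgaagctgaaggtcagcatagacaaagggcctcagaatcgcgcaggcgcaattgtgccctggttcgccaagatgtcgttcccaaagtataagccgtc

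NDUFS6, SDHD and NDUFB4 thus share the NRF1 letters in capitals, and in SDHD and NDUFB4 the motif reads on both strands of the same 10 bases. An NRF1 motif was present in a member that rose as well as in members that fell. Over all coding members, 65 of 77 had a promoter in the table, and 10 of them (15.4%) held the NRF1 motif against 2.1% of 27305 promoters of the same length. The YY1 motif AAGATGGC was present in 10 (15.4%, against 3.03%) and the ETS motif in 9 (13.8%, against 4.44%). The NF-Y motif CCAAT was present in 22 (33.8%), close to the 35.7% of all promoters. Among members that fell with MEL, 13.3% of 30 promoters held NRF1 letters, 13.3% ETS letters and 16.7% YY1 letters. Among coding members that were not called, each of these shares was 14.7% of 34 promoters. CCAAT was in 16.7% of the promoters of members that fell and 50% of those not called. By complex it was in 22.6% of 31 promoters of complex I, 0% of 2 of complex II and 40% of 5 of complex III. In complex IV it was in 57.1% of 14 and in ATP synthase in 38.5% of 13. Complex and call were not separated for this motif, and no difference in shares was tested. These shares describe letters in a window, not binding.

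Over the 3 vectors, 36 of the 80 members fell, 1 rose and 43 were not called by limma (adjusted p under 0.05 over all 54675 probe sets). Of all 19775 genes, 18.1% were called lower and 18.6% higher. The fairer reference is the 5115 genes with a mean log2 signal over 8, because 70 members exceed that level. Among these genes 37.3% were called lower and 18% higher, and among the 70 members 51.4% lower and 1.43% higher. The median log2 difference was -0.11 over the 80 members and 0.04 over all genes. Above 8 it was -0.13 over the 70 members and -0.07 over the genes. The members thus moved in the same direction as well expressed genes in general. Of the members, 64 of 80 had a difference below 0. In bulk RNA, fewer cells expressing a gene and less of its RNA per cell cannot be told apart.

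Of the 36 members that fell, 35 had a difference below 0 in each of the 3 vectors, with NDUFB8 (0.06 in CALRins5) as the exception. In 8 of the 80 members every MEL array was below every untreated array, which held for 6.23% of the 19775 genes. These were NDUFS1, NDUFS6, NDUFV3, NDUFA7 and NDUFB5 of complex I, SDHC of complex II, and UQCRC1 and UQCRC2 of complex III. All 8 have a mean over 8, and the share among genes at that level is not given here, so this separation is not shown to be particular to the members. The count of members that fell depended on the processing. It was 20 (with 3 higher) when the arrays were quantile normalized again and 18 (with 0 higher) with the GAPDH 3' to 5' difference of each array as a covariate, and all that were lower were among the 36. Under the first setting 28.6% of the 70 members above 8 were lower against 26.8% of genes at that level, and under the second 25.7% against 23.2%, so the shares of members and genes lay close together. The median member difference was -0.05 under the first and -0.10 under the second. Without the 2 arrays that stood apart 28 members were lower, 40% of those above 8 against 33.4% of genes. The part of RNA quality in the result was not tested beyond these values.

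**Figure D1:**
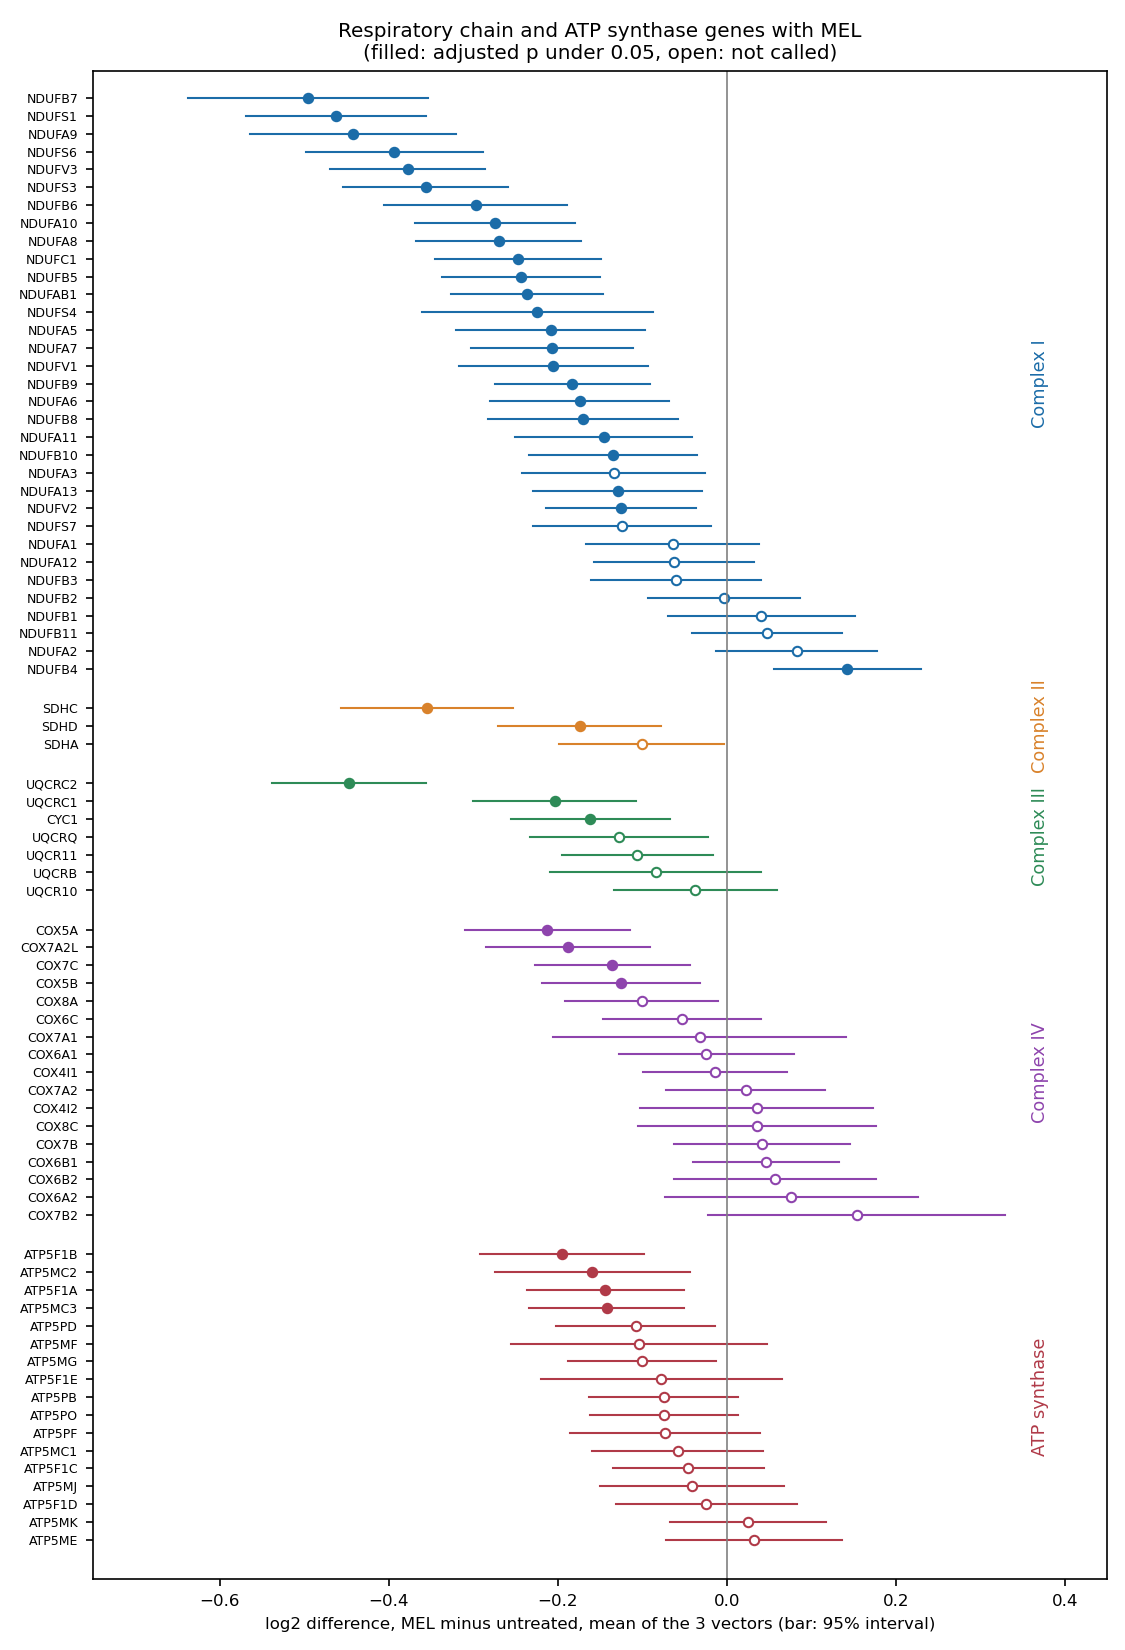
Log2 difference of MEL minus untreated, averaged over the 3 vectors, for the 77 coding members by complex, with 95% intervals (limma, n = 3 arrays per group). Filled points were called at an adjusted p under 0.05. Complex I reaches from -0.50 for NDUFB7 to 0.14 for NDUFB4, and most members of complex IV and ATP synthase are open and near 0.

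Complex I is the largest complex of the chain. Of its 33 members, 23 fell, 1 rose (NDUFB4) and 9 were not called, and the median log2 difference was -0.18. The NDUFS and NDUFV genes, most of them subunits of the arm that holds the flavin and the iron-sulfur clusters, fell in 7 of 8 members, with a median of -0.29. The NDUFA genes fell in 9 of 13 (median -0.17) and the NDUFB genes, accessory subunits of the membrane arm, in 6 of 11 (median -0.13). NDUFC1 fell by 0.25. With quantile normalization repeated or with the GAPDH covariate, 15 complex I members were lower, and without the 2 arrays that stood apart 19. Of the genes with a mean over 8, 37.3% were lower in the main model. In these settings the share of such genes was 26.8%, 23.2% and 33.4%, in that order. The complex I median was -0.12 with quantile normalization repeated and -0.19 with the GAPDH covariate.

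NDUFS1 encodes the largest iron-sulfur subunit. Its log2 signal was 9.98, 9.82 and 9.85 in untreated CALRwt, 9.83, 9.87 and 9.80 in untreated CALRdel52 and 9.91, 9.93 and 10.05 in untreated CALRins5. With MEL it was 9.54, 9.38 and 9.28 in CALRwt, 9.40, 9.50 and 9.29 in CALRdel52 and 9.46, 9.45 and 9.58 in CALRins5. The highest MEL array was below the lowest untreated array. The difference was -0.46 ± 0.05 (SE, adjusted p = 2.02e-06), or 72.6% of the untreated level on the RMA scale. This probe set is one of those whose name marks possible cross-hybridization, and the brightest NDUFS1 probe set without that mark (mean 7.39) gave -0.10 and was not called (adjusted p = 0.195). Of the 3 dimmer ones, 1 fell by 0.55 (mean 5.97) and the others, at -0.00 and -0.21, were not called.

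NDUFB7, an accessory subunit facing the intermembrane space, had the largest difference of the members at -0.50 ± 0.07 (SE, adjusted p = 2.06e-05). Untreated signals were 8.81, 8.79 and 8.87 in CALRwt, 8.37, 8.80 and 8.68 in CALRdel52 and 8.76, 8.76 and 8.86 in CALRins5. The MEL arrays read 8.38, 8.16 and 8.05 in CALRwt, 8.23, 8.37 and 7.99 in CALRdel52 and 8.27, 8.38 and 8.43 in CALRins5. The treatments overlapped only through untreated CALRdel52 replicate 1, the lowest untreated array, which lay among the MEL values. The gene's other probe set, a dim one without a cross-hybridization mark (mean 4.01), gave -0.14 and was not called (adjusted p = 0.24).

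NDUFS6, an accessory subunit next to the iron-sulfur arm, ranged from 10.30 to 10.61 untreated (median 10.47) and from 9.93 to 10.22 with MEL (median 10.07), with no overlap and a difference of -0.39 ± 0.05. NDUFV3, an accessory subunit beside the flavin site, ranged from 10.27 to 10.39 untreated (median 10.35) and from 9.84 to 10.03 with MEL (median 9.95), also with no overlap, and fell by 0.38 ± 0.04. The other members among the 6 with the largest change were NDUFA9 and NDUFS3, both in the part of the complex near the coenzyme Q site. NDUFA9 ranged from 8.68 to 9.47 untreated (median 9.12) and from 8.43 to 8.88 with MEL (median 8.65). NDUFS3 ranged from 10.09 to 10.61 untreated (median 10.44) and from 9.96 to 10.19 with MEL (median 10.02). In these genes the treatments overlapped across vectors, but within each vector all MEL arrays were below the untreated ones, with differences of -0.44 ± 0.06 and -0.36 ± 0.05. The other 17 members of complex I that fell had differences between -0.30 and -0.13.

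Some of these and of the uncalled members are named here for their roles, after their values were seen. The flavin-binding subunit NDUFV1, where NADH enters, fell by 0.21, and its iron-sulfur neighbour NDUFV2 by 0.13. NDUFAB1, which also serves as the mitochondrial acyl carrier protein, fell by 0.24, and NDUFS4, an accessory subunit whose loss causes Leigh syndrome, by 0.22. All of these were called in the direction of most of the complex. NDUFS7, which holds the last iron-sulfur cluster before coenzyme Q, had a difference of -0.12 that did not pass (adjusted p = 0.0664), and NDUFA3 one of -0.13 (adjusted p = 0.0524). NDUFA1, NDUFA12 and NDUFB3 were at -0.06 each and were not called. NDUFB1 (0.04), NDUFB11 (0.05) and NDUFA2 (0.08) lay above 0 and were not called either.

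NDUFB4, an accessory subunit of the membrane arm, went the other way. Its signal was 11.24, 11.22 and 11.22 in untreated CALRwt, 11.26, 11.35 and 11.31 in untreated CALRdel52 and 11.20, 11.21 and 11.27 in untreated CALRins5. With MEL it was 11.42, 11.39 and 11.31, then 11.43, 11.46 and 11.38, and 11.46, 11.37 and 11.35. Within each vector all MEL arrays were above the untreated ones, and the groups overlapped across vectors. The difference was 0.14 ± 0.04 (SE, adjusted p = 0.0125). The call depended on the probe set: the gene's dim second probe set (mean 4.44) fell by 0.22, and the mean of the probe sets gave -0.04, which was not called. It was also lost with arrays centred on their medians and with the GAPDH covariate.

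**Figure D2:**
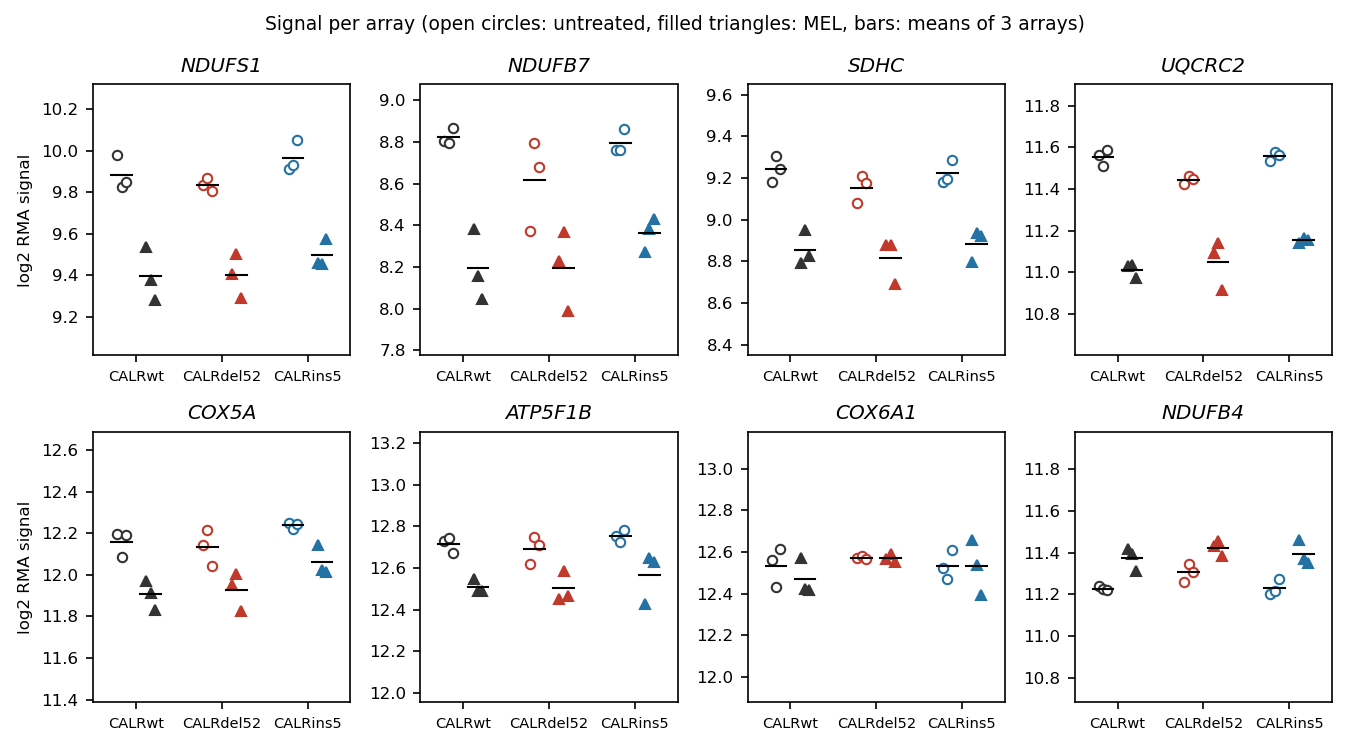
Log2 RMA signal of 8 members on each of the 18 arrays by vector, with untreated arrays as open circles, MEL arrays as filled triangles and group means as bars (n = 3). NDUFS1, SDHC and UQCRC2 separate by treatment across all 18 arrays. NDUFB7, COX5A and ATP5F1B separate only within each vector, COX6A1 does not separate, and NDUFB4 lies higher with MEL within each vector.

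Complex II, succinate dehydrogenase, also belongs to the TCA cycle. SDHC and SDHD, its membrane anchors, fell, and the flavoprotein SDHA was not called. SDHC was 9.18, 9.31 and 9.24 in untreated CALRwt, 9.08, 9.21 and 9.17 in untreated CALRdel52 and 9.18, 9.20 and 9.29 in untreated CALRins5. With MEL it was 8.79, 8.95 and 8.82, then 8.88, 8.88 and 8.69, and 8.80, 8.93 and 8.92. Every MEL array was below every untreated one, and the difference was -0.35 ± 0.05 (SE, adjusted p = 2.03e-05). SDHC has 7 probe sets here, of which 5 were called lower, 1 that would stand for the gene without cross-hybridising probe sets was not called (-0.03), and 1 at the low end of signal (mean 3.69) rose by 0.21. SDHD ranged from 11.27 to 11.40 untreated (median 11.33) and from 10.99 to 11.29 with MEL (median 11.14), with a small overlap and a difference of -0.17 ± 0.05 (adjusted p = 0.00675). Its call was lost with quantile normalization repeated (-0.11), with the GAPDH covariate (-0.15) and in the mean of its probe sets (-0.03). SDHA ranged from 9.37 to 9.72 untreated and from 9.34 to 9.55 with MEL, and its difference of -0.10 ± 0.05 did not pass (adjusted p = 0.104). A dimmer probe set that SDHA shares with its pseudogenes gave -0.32 (adjusted p = 0.00113), so the reading of SDHA is uncertain.

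Complex III had 3 members that fell and 4 that were not called, with all 7 differences below 0 and a median of -0.13. UQCRC2, a core protein of the matrix side, had the smallest p of all members. It was 11.56, 11.51 and 11.59 in untreated CALRwt, 11.42, 11.46 and 11.45 in untreated CALRdel52 and 11.54, 11.58 and 11.56 in untreated CALRins5. With MEL it was 11.03, 11.04 and 10.97, then 11.09, 11.14 and 10.92, and 11.14, 11.17 and 11.16. The groups were separated by more than the spread within any of them, and the difference was -0.45 ± 0.04 (SE, adjusted p = 5.24e-07), or 73.4% of untreated. A second bright probe set of the gene (mean 10.82) gave -0.64 ± 0.07. Its partner UQCRC1 ranged from 10.93 to 11.11 untreated (median 11.04) and from 10.65 to 10.91 with MEL (median 10.81), without overlap, and fell by 0.20 ± 0.05. CYC1, cytochrome c1, fell by 0.16 ± 0.04 (adjusted p = 0.0095), with overlapping ranges of 10.86 to 11.26 untreated and 10.83 to 11.03 with MEL. The call of CYC1 was lost with quantile normalization repeated and with the GAPDH covariate, and that of UQCRC1 with the covariate. UQCRQ, UQCR11, UQCRB and UQCR10, small subunits, had differences of -0.13 to -0.04 and were not called.

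In complex IV, cytochrome c oxidase, 4 of 17 members fell and 0 rose. The median was -0.01 (0.01 with quantile normalization repeated, so its sign was not settled). This median includes the 6 tissue isoforms, whose signals were near the bottom of the scale. Among probe sets above the median level, which left 12 members, it was -0.04. Of the 11 members that are not tissue isoforms 4 fell, among them COX7A2L, a factor for supercomplexes that is counted here by its symbol. Of the 6 tissue isoforms 0 were called and 0 had an unadjusted p under 0.05. COX5A, which sits on the matrix side, ranged from 12.04 to 12.25 untreated (median 12.20) and from 11.83 to 12.14 with MEL (median 11.97). Only CALRins5 MEL replicate 1 reached the untreated range, and the difference was -0.21 ± 0.05 (SE, adjusted p = 0.00178).

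COX7A2L, a factor that joins complexes III and IV into supercomplexes, fell by 0.19 ± 0.05, COX7C by 0.14 ± 0.04 and COX5B, a zinc-binding subunit, by 0.13 ± 0.04. Their ranges overlapped between treatments, and all 3 calls were lost with quantile normalization repeated and with the GAPDH covariate. Without cross-hybridising probe sets COX7C was at -0.06 and COX5B at -0.00, neither called, whereas COX5A was at -0.43. The readings of COX5B and COX5A in that setting came from dimmer probe sets (means 6.69 and 6.68). Further bright COX5B probe sets, with names that mark cross-hybridization (means 11.56 and 11.53), were called lower at -0.25 and -0.30. The call of COX5B was also lost with 12 of the 18 arrays left out in turn and that of COX7C with 2, CALRwt or CALRins5 untreated replicate 3. COX4I1, COX6A1, COX6B1, COX7A2, COX7B, COX6C and COX8A, each with a mean signal over 11, had differences of -0.10 to 0.05 and were not called. COX6A1 (-0.02) ranged from 12.43 to 12.62 untreated and from 12.40 to 12.66 with MEL. The tissue isoforms COX4I2 (0.04), COX6A2 (0.08), COX6B2 (0.06), COX7A1 (-0.03), COX7B2 (0.15) and COX8C (0.04), known from lung, muscle or testis, had mean signals of 2.27 to 4.81, so little can be read from them at this signal.

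In ATP synthase 4 of 17 members fell and 0 rose, and the median was -0.07. The 4 were the catalytic and structural head subunits ATP5F1B and ATP5F1A and the c ring genes ATP5MC2 and ATP5MC3, which encode the same mature rotor protein. ATP5F1B was 12.73, 12.74 and 12.67 in untreated CALRwt, 12.62, 12.75 and 12.71 in untreated CALRdel52 and 12.75, 12.73 and 12.78 in untreated CALRins5. With MEL it was 12.55, 12.49 and 12.49, then 12.45, 12.59 and 12.47, and 12.43, 12.65 and 12.63. Within each vector the treatments were separated, and the difference was -0.19 ± 0.05 (SE, adjusted p = 0.00321), or 87.4% of untreated. ATP5F1A fell by 0.14 ± 0.04, ATP5MC2 by 0.16 ± 0.05 and ATP5MC3 by 0.14 ± 0.04, and in all 3 the ranges overlapped. By position in the enzyme, 2 of 5 head members, 2 of 3 c ring members, 0 of 4 peripheral stalk members and 0 of 5 other membrane members were called. In each of the last 2 groups 1 member had an unadjusted p under 0.05. These were the calls most open to the processing: quantile normalization left 1 ATP synthase member lower, the GAPDH covariate left 0 in limma (median -0.08), and dropping the arrays that stood apart left 1. ATP5MC2 lost its call with 9 of the 18 arrays left out in turn. With the moderated test under trend and robust options and with the unmoderated model the count was 8. ATP5MF was read here by a dim probe set (mean 4.48), and its bright probe set, shared with ARMC2-AS1, gave -0.05 (adjusted p = 0.391).

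Levels and changes went together among the members. Members with a mean signal of 8 to 10 fell in 7 of 11 and those of 10 to 11 in 12 of 14, against 38.5% of genes in each band. Members of 11 to 12 fell in 9 of 25 and those over 12 in 8 of 20, against 33.3% and 21.4% of genes, and the 7 coding members under 8 were not called (11.5% of genes there were lower). Across the 70 coding members over 8, the mean signal and the log2 difference had a Pearson's r of 0.51 and a Spearman's rho of 0.44. Across the 5115 genes over 8 rho was 0.02. These values describe genes on the same arrays, which are not independent, and a probe set's signal also depends on its probes. Complexes I and II held most members with signals under 11, and complex IV and ATP synthase most of those over 12, so complex and level cannot be told apart here.

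**Figure D3:**
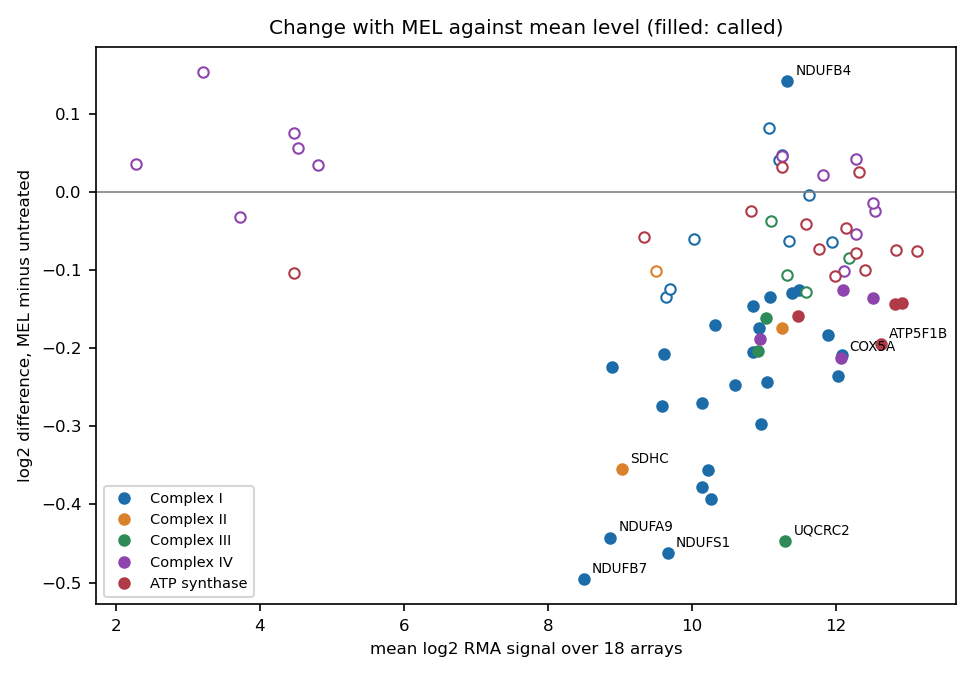
Log2 difference with MEL over the 3 vectors against the mean log2 RMA signal over 18 arrays for the 77 coding members, coloured by complex, with called members filled. Members with differences below -0.3 lie between 8 and 11 except UQCRC2 at 11.3, and members over 12 fall by at most 0.24.

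The probe set that stands for a gene mattered for some members. Of the 80 members 44 had more than 1 probe set. The members that fell had 41 further probe sets, of which 30 had a difference below 0, 16 were called lower and 3 were called higher. Those 3 were dim probe sets of NDUFA7 (0.29), NDUFV1 (0.30) and SDHC (0.21), with mean signals of 3.69 to 5.86. Among members not called, a second probe set of ATP5PO fell by 0.14 (adjusted p = 0.0468) and a dim one of ATP5F1E by 0.63, while dim ones of UQCRB (0.22) and NDUFV2-AS1 (0.30) rose. Without probe sets whose names mark cross-hybridization, 67 members were left and 23 of them fell. Among the shared probe sets, the brighter one of NDUFC2 (mean 11.6) fell by 0.17 (adjusted p = 0.00771). Its dimmer one (mean 7.17) was at 0.12 and was not called. That of NDUFS5 and RPL10 fell by 0.13 (adjusted p = 0.0246), and that of UQCRH and UQCRHL had a difference of -0.04 and was not called. Those of NDUFS8 were at -0.02 (mean 10.1), -0.13 (mean 9.2) and 0.19 (mean 6.88) and were not called. These members were named after their values were seen.

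In CALRwt cells 19 of 80 members fell with MEL, in CALRdel52 cells 10 and in CALRins5 cells 12, and limma called 0 higher in each. At an unadjusted p under 0.05, 29 were lower and 1 higher in CALRwt, 23 and 0 in CALRdel52, and 25 and 2 in CALRins5. Of all genes 10.5%, 8.03% and 6.8% were called lower in these vectors, and of the genes over 8 23.3%, 15.9% and 14.2%. Called higher were 7.6%, 5.23% and 4.83% of all genes and 8.48%, 5.92% and 8.13% of the genes over 8. Of the 70 members over 8 the shares called lower were 27.1%, 14.3% and 17.1%, so within a vector they were near the shares of genes at such levels. Median member differences were -0.13 (CALRwt), -0.09 (CALRdel52) and -0.08 (CALRins5). NDUFB7, NDUFS1, NDUFS6, NDUFV3, SDHC and UQCRC2 were called in all 3 vectors. The share of genes called in all 3 is not given here, so such calls are not shown to be particular to the members. UQCRC2 was at -0.54 in CALRwt, -0.40 in CALRdel52 and -0.40 in CALRins5, NDUFS1 at -0.48, -0.44 and -0.47, and SDHC at -0.39, -0.34 and -0.34. NDUFA9 (-0.56, -0.26 and -0.51) and NDUFS3 (-0.40, -0.20 and -0.47) were called in CALRwt and CALRins5 and not in CALRdel52, where their untreated level was the lowest of the vectors. Complex I had 14 calls in CALRwt, 7 in CALRdel52 and 10 in CALRins5, and ATP synthase had 0 in each. Each count rests on 3 arrays a group and moved widely. Left-out arrays took CALRwt to between 11 and 20, CALRdel52 to between 3 and 11 and CALRins5 to between 7 and 13. CALRdel52 fell to 4 without its MEL replicate 3 (also with both arrays that stood apart left out), to 3 without its untreated replicate 2 and to 5 without its untreated replicate 3. CALRins5 fell to 7 without its MEL replicate 1 or its untreated replicate 3. CALRwt fell to 11 without its untreated replicate 1 or 3 or its MEL replicate 2 or 3.

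**Figure D4:**
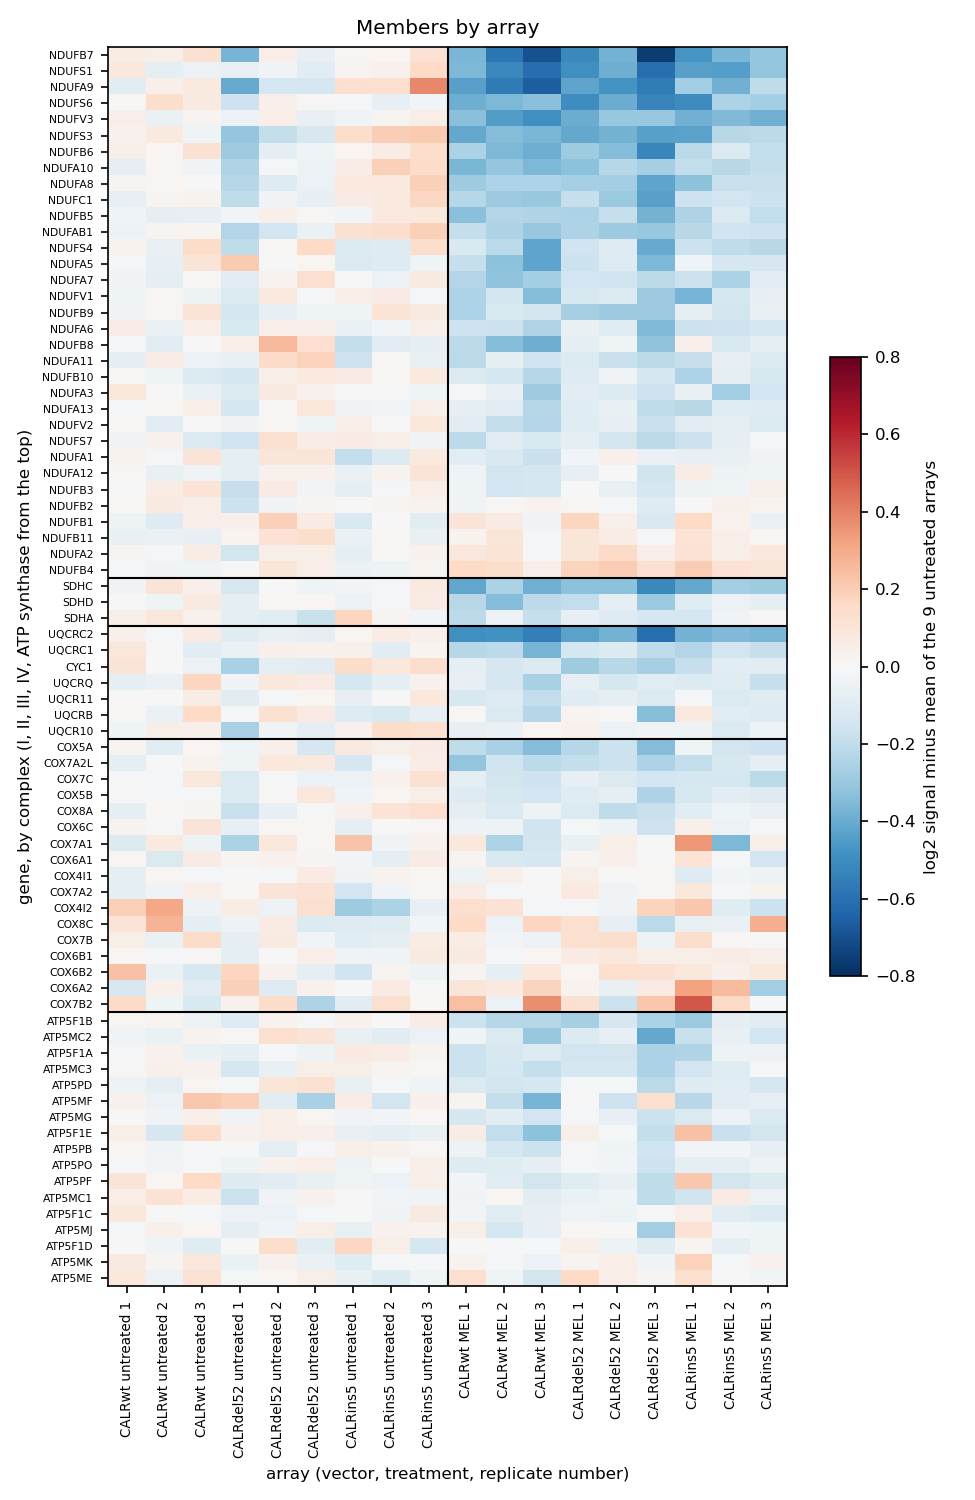
Log2 RMA signal of the 77 coding members (rows, by complex and by size of change) on the 18 arrays (columns), as the difference from the mean of the 9 untreated arrays on a colour scale from -0.8 to 0.8. The upper rows of complex I, SDHC and UQCRC2 are blue on every MEL array, and rows of complex IV and ATP synthase are mostly pale.

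Whether mutated CALR changed these genes was asked in untreated cells, with MEL, and as a difference in response. Comparisons of 1 treatment share its CALRwt arrays, and the response uses those of both. Before MEL exposure, 0 members were called between CALR mutated and CALRwt cells (0% of all genes), and 1 had an unadjusted p under 0.05. This was COX4I2 (-0.23 ± 0.09, adjusted p = 0.818 in limma), whose signals of 4.51 to 5.10 are near the bottom of the scale, followed by ATP5PF (-0.14 ± 0.07, adjusted p = 0.865), a stalk subunit. Neither passed. With MEL 0 members were called (0.086% of all genes), and 1 had an unadjusted p under 0.05. This was NDUFB8, an accessory subunit of the membrane arm, at 0.22 ± 0.08 (adjusted p = 0.553 in limma). Its MEL arrays were 10.20, 10.06 and 10.02 in CALRwt, 10.34, 10.38 and 10.09 in CALRdel52 and 10.45, 10.29 and 10.33 in CALRins5, so the mutated cells were higher except for 1 array. NDUFA5 followed at 0.16 ± 0.08 (adjusted p = 0.689). The response to MEL of mutated minus CALRwt cells gave 0 calls among members (0% of all genes) and 0 at an unadjusted p under 0.05. The smallest p belonged to SDHA (0.15, 95% interval -0.05 to 0.36) and NDUFB3 (0.16, -0.06 to 0.37), both with an adjusted p of 0.995 in limma. The median response difference was 0.05 over the members, with 58 of 80 above 0, and 0.00 over all genes. Above a mean of 8 it was 0.05 over the 70 members and 0.03 over the genes, so well expressed genes in general leaned the same way. The unmoderated linear model and limma with trend and robust options also called 0 in these comparisons after adjustment.

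Each mutated vector alone against CALRwt had 0 called members, untreated (0.0556% of all genes for CALRdel52 and 0.0101% for CALRins5) and with MEL (0.0506% and 0.0759%). At an unadjusted p under 0.05 these comparisons had 5, 1, 1 and 4 members in limma. Their responses to MEL against that of CALRwt had 0 calls (0% of all genes for either) and 1 and 2 members at that p. CALRins5 against CALRdel52 had 0 members called with MEL (0.0759% of all genes, 4 at an unadjusted p under 0.05) and 0 in response (0.0303%, 4 at that p).

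In untreated cells, NDUFS3 was called higher in CALRins5 than in CALRdel52, where 1.13% of all genes were called. Its signal was 10.54, 10.60 and 10.61 in CALRins5, 10.09, 10.21 and 10.27 in CALRdel52 and 10.44, 10.48 and 10.37 in CALRwt, so the mutated vectors lay on either side of CALRwt without overlap. The difference was 0.39 ± 0.08 (SE, adjusted p = 0.0498 in limma). The call sat at the threshold and was lost in 13 of 19 alternatives, among them the replicate block (adjusted p = 0.0633), while the difference stayed between 0.34 and 0.43. With MEL the same pair differed by 0.12 (adjusted p = 0.751), and the difference in response, -0.27, did not pass (adjusted p = 0.691).

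The other genes of the pathway were taken from 10 lists. Complex I assembly factors fell in 16 of 16, with a median of -0.24. NDUFAF6 was at -0.57 ± 0.05, NUBPL, which delivers iron-sulfur clusters to the complex, at -0.41 ± 0.07, and NDUFAF3 at -0.30 ± 0.06. Of the complex II assembly factors 3 of 4 fell, with SDHAF3 at -0.71 ± 0.11, SDHAF2, which helps to attach the flavin to SDHA, at -0.26 ± 0.05, and SDHAF1 at -0.11 ± 0.04, a call lost with 16 of the 18 arrays left out in turn. Complex IV assembly factors fell in 12 of 24 and rose in 2 (SURF1 and COX19, named after their values were seen). Those with the largest falls were SCO1, a copper chaperone (-0.66 ± 0.07), COX11, which places copper (-0.35 ± 0.05), and COX15, which makes heme A (-0.35 ± 0.05). ATP synthase assembly and control genes fell in 5 of 7, among them DMAC2L (-0.41 ± 0.06), TMEM70 (-0.37 ± 0.05) and ATPAF2 (-0.24 ± 0.07, not called at -0.10 in the mean of its probe sets). These counts stand beside the 18.1% of all genes and 37.3% of genes over 8 that were called lower.

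Complex III assembly factors stood otherwise, with 1 lower and 2 higher of 6. TTC19 fell by 0.27 ± 0.05, and LYRM7, a chaperone of the Rieske protein, rose by 0.18 ± 0.05, a call lost with arrays centred on their medians, with the GAPDH covariate and in the mean of its probe sets. UQCC1 rose by 0.46 ± 0.05 on its brightest probe set, but fell by 0.21 on the probe set used without cross-hybridising names and by 0.14 in the mean of its probe sets, so its direction is not settled. Coenzyme Q synthesis genes fell in 11 of 13, with PDSS2, which builds the isoprenoid tail, at -0.41 ± 0.07, COQ2, which joins it to the ring, at -0.40 ± 0.05 and the methyltransferase COQ3 at -0.38 ± 0.06. Enzymes of the TCA cycle and pyruvate dehydrogenase, which feed the chain with NADH, fell in 12 of 16 measured (18 listed), with a median of -0.34. Among them PDHB was at -0.77 ± 0.05, PDHX at -0.54 ± 0.05 and IDH3B at -0.49 ± 0.05. Carriers of adenine nucleotides and phosphate fell in 4 of 6 measured (10 listed), with the outer membrane pore VDAC1 at -0.29 ± 0.05 and the ADP/ATP carriers SLC25A5 at -0.28 ± 0.04 and SLC25A4 at -0.25 ± 0.05. Another choice of probe sets ended the calls of VDAC1 (-0.14) and SLC25A4 (-0.08).

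Among 9 electron carriers and supercomplex factors 2 fell and 2 rose. HCCS, which attaches heme to cytochrome c, fell by 0.37 ± 0.05 and CHCHD4, an oxidoreductase of protein import, by 0.29 ± 0.05, while ETFDH, which brings electrons from fatty acid oxidation to coenzyme Q, rose by 0.28 ± 0.05. The other riser was ETFB, its partner (0.22). CYCS, cytochrome c itself, had a difference of 0.00. Of 14 genes that control respiratory gene transcription 3 fell and 3 rose. The mitochondrial transcription factors TFB2M and TFAM fell by 0.39 ± 0.04 and 0.36 ± 0.06, and TFB1M by 0.29. The mitochondrial RNA polymerase POLRMT rose by 0.40 ± 0.05, NRF1 by 0.21 and GABPB1, a subunit of an ETS-family factor, by 0.19. TFB2M (-0.00) and POLRMT (0.11) were not called in the mean of their probe sets. ETFB, CYCS, TFB1M, NRF1 and GABPB1 were named after their values were seen. Over the 10 lists, 69 of 115 measured genes fell and 9 rose. Beside this and the counts of each list, 18.1% of all genes were called lower and 18.6% higher. Of the genes over 8 these shares were 37.3% and 18%, and the lists hold genes above and below that level.

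**Figure D5:**
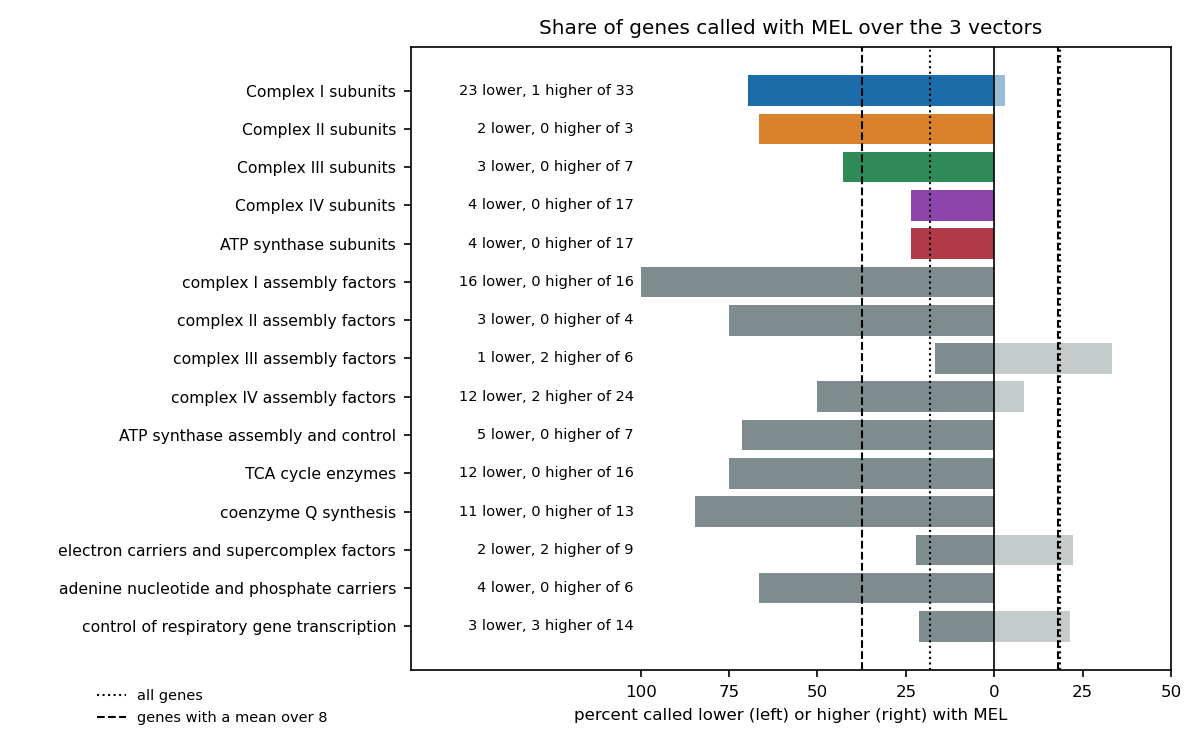
Percent of genes called lower (left) or higher (right) with MEL over the 3 vectors, for the subunits of each complex and for the 10 lists of related genes, with the counts beside the bars. Dotted and dashed lines mark all genes (18.1% lower) and genes with a mean over 8 (37.3% lower). Complex I reaches beyond them on the left (23 of 33), and complex IV (4 of 17) and ATP synthase (4 of 17) lie between the lines. Both counts of 17 include members with a mean under 8 (the tissue isoforms of complex IV and ATP5MF), which the dashed line leaves out.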

How the data were processed

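Expression was measured on 18 arrays of transduced K562 cells. The values used were the log2 RMA expression values that the authors deposited, with 1 value for each of 54675 probe sets and each array. Per the labels they were made with RMA in Partek, which corrects background, equalises the arrays and summarises the probes of a set, so a shift shared by all genes cannot be seen in them. No source used here says whether all 18 arrays went through RMA together. No further normalization or filter was applied. Genes were named through the platform's probe table, and only the 41097 probe sets naming 1 gene were used for genes.

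Groups came from the sample labels. The test was that of limma 3.58.1 (R 4.3.3, two-sided, Benjamini-Hochberg over all probe sets, threshold 0.05), in a model of 6 groups over 18 arrays, or of 3 groups over the 9 untreated arrays for comparisons between untreated cells. Members were read from those fits. The members and the gene lists were chosen with earlier results of these data known. Members were named by rule: in each complex the up to 6 called members with the largest change, those called against the trend of their complex, those called between vectors or else the 2 with the smallest p, the tissue isoforms and SDHA to SDHD, and up to 3 called genes of each other list. Promoters came from RefSeq (GRCh38.p14). The models were tested on simulated data. Alternatives were a replicate block, 2 other normalizations, 3 choices of probe sets, 3 other tests, an RNA quality covariate, other sets of arrays and left-out arrays. Precision rests on 3 arrays a group. Plots were made in Python 3.11.15 (matplotlib 3.10.9).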

Additional observations from a re-analysis of the deposited data

How the results depend on the processing

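The number of members lower with MEL over the 3 vectors (36) was 20 with quantile normalization repeated, 23 without cross-hybridising probe sets and 18 with the GAPDH covariate, and 29 to 38 with 1 array left out. Members higher (1) numbered 3 with quantile normalization repeated (NDUFB4, NDUFA2 and COX6B1), 0 with arrays centred on their medians, without cross-hybridising probe sets, with each gene's probe sets averaged and with the GAPDH covariate, and 1 to 2 with 1 array left out, where the second was NDUFB2-AS1 or NDUFV1-DT. The median member difference (-0.11) was -0.052 with quantile normalization repeated, -0.155 with arrays centred on their medians and -0.12 to -0.10 with 1 array left out.

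In CALRwt the count of members lower (19) was 9 with quantile normalization repeated, 30 with trend and robust options, 29 in the unmoderated linear model with adjusted p or with an unadjusted p under 0.01, 11 with the GAPDH covariate, 10 with the arrays of that vector alone and 11 to 20 with 1 array left out. In CALRdel52 (10) it was 17 among probe sets above the median level, 4 without cross-hybridising probe sets, 19 with trend and robust options, 18 unmoderated, 23 at an unadjusted p under 0.01, 5 with the GAPDH covariate, 4 without both arrays that stood apart, 2 with the arrays of that vector alone and 3 to 11 with 1 array left out. In CALRins5 (12) it was 7 without cross-hybridising probe sets, 22 with trend and robust options, 25 at an unadjusted p under 0.01, 5 with the GAPDH covariate and 7 to 13 with 1 array left out. At an unadjusted p under 0.01 in the unmoderated model, 1 member was called between mutated and CALRwt cells untreated (ATP5PF) and 1 with MEL (NDUFB8). Otherwise these comparisons and the difference in response stayed at 0 under every alternative run, 1 array left out included. Apart from the smaller sets of probe sets and arrays, the cause of these moves was not tested.

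Over the 57 named genes and the alternatives for MEL, 1552 of 1645 values kept their direction and side of the threshold and 86 lost the call. The reversed values were those of NDUFB4 (-0.22 without cross-hybridising probe sets, -0.039 in the mean of its probe sets) and UQCC1 (-0.21 and -0.14), where another probe set entered. With the replicate number as a block, the count was 36 lower and 1 higher, with 36 shared, and 1 named gene lost its call. Deviations of same-numbered arrays of different groups had correlations of -0.31 to 0.39 (45 pairs, median 0.07, 21 over 0.1). Those of differently numbered arrays had correlations of -0.39 to 0.35 (90 pairs, median -0.03, 16 over 0.1). Of the 18 arrays, 16 correlated best with one of their own number. This is a hint from the data and not from the design, so the numbers were not treated as pairs. Signals near the bottom of the scale, as for the tissue isoforms of complex IV, limit what can be said of those members.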
